A study of Mus musculus with 10 samples.

Results

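The E2F and RB family genes described here were the 10 rows of the deposited count table that carried the symbols E2f1, E2f2, E2f3, E2f4, E2f6, E2f7, E2f8, Rb1, Rbl1 and Rbl2, out of 25078 genes listed. They were chosen by name, and all 10 were among the 18747 genes that had a read in 1 or more libraries and entered the fit. Bone marrow LSK cells (Lin-Sca-1+c-Kit+, the fraction that holds mouse stem cells and early progenitors) were sequenced, 1 library from each of 5 CM animals and 5 CM/miR-126Δ/Δ animals. The comparison asks how loss of the microRNA miR-126 altered the transcriptome of preleukemic LSK cells that express the inv(16) fusion gene Cbfb-MYH11 (CM).

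Both genotypes were on a C57BL/6 background and carried the Cbfb 56M/+ knock-in allele with Mx1-Cre. The CM/miR-126Δ/Δ mice carried miR-126 flox/flox alleles in addition. Mice of both sexes, 6 to 8 weeks old, received repeated injections of poly(I:C), which switches on the interferon-driven Mx1-Cre, and cells were collected 6 weeks after induction. Mx1-Cre also acts in cells other than blood cells, and both groups had received the interferon stimulus. No group without the fusion gene is part of these libraries, so the values below compare a second change made on top of CM.

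E2F proteins bind the promoters of genes needed for DNA replication and division, mostly as a dimer with a DP protein. The activators E2f1, E2f2 and E2f3 drive these genes when the pocket proteins Rb1, Rbl1 (p107) and Rbl2 (p130) release them after phosphorylation by cyclin D and cyclin E kinases. E2f4 works mainly with Rbl1 and Rbl2 as a repressor in resting cells, while E2f6, E2f7 and E2f8 repress without pocket proteins. In blood stem cells the pocket proteins are known for holding cells out of cycle.

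The mature strand of the deleted microRNA, mmu-miR-126a-3p, is printed first because its seed (bases 2 to 8, in capitals) is the sequence searched for in the members. It lies at chr2:26591402-26591423 on the plus strand of GRCm38.p6, in an intron of Egfl7 (RefSeq).
mmu-miR-126a-3p: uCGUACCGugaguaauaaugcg
The complement of the 6 bases that follow the first base, GGTACG, occurred in the longest annotated 3′ UTR of 3.47% of 14280 fitted genes, and the 7-base complement of the whole seed, CGGTACG, in 0.266% of them, 38 genes. Among the 10 members, E2f7 held 1 site of the 7-base kind, at bases 882 to 888 of a 3′ UTR of 2546 bases, and E2f1 held 1 of the 6-base kind, at bases 886 to 891 of 1281. No match was found in the 3′ UTRs of the other 8, and no seed other than that of mmu-miR-126a-3p was searched for. The sites are shown in capitals with the bases around them, from GENCODE M1 transcripts, and the seed-matched bases of E2f7 are followed by an A.
E2f7: ataagacgaatCGGTACGacagagcagaa
E2f1: gagatggggagGGTACGtgagggccttg
A match is a run of letters and does not show that the microRNA binds there.

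The promoters of the members are shown because several of these genes are themselves read by E2Fs. The search was for TTTCCCGC, TTTCGCGC, TTTGCCGC and TTTGGCGC, the forms of the E2F motif, on both strands. It covered windows from 250 bases before to 50 bases after the gene start, taken from RefSeq (GRCm38.p6). A window was at hand for 8 members, all but E2f4 and Rb1, and 4 of the 8 held a match: E2f2, E2f3, E2f7 and Rbl1. The window of E2f1 was placed at a start 466 bases inside the gene as the count table gives it, so the bases before that outer start of E2f1 were not searched. Of all 32851 windows of the same length 2.26% held one, and of 14079 fitted genes with a window 4.03% did. The 4 windows are printed in the direction of transcription with the match in capitals.
E2f2, chr4:136172024-136172323, plus strand: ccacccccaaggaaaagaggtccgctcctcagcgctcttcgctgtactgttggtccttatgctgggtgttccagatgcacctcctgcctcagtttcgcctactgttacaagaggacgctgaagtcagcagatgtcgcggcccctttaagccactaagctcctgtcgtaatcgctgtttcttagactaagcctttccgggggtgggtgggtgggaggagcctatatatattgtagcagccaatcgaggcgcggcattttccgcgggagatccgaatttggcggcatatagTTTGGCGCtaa
E2f3, chr13:29986014-29986313, minus strand: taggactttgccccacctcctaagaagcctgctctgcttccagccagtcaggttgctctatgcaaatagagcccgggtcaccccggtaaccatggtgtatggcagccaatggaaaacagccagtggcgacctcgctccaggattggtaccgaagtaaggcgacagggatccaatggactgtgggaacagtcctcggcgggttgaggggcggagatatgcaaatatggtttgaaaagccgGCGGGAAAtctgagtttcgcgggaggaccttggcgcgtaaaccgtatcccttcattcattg
E2f7, chr10:110745189-110745488, plus strand: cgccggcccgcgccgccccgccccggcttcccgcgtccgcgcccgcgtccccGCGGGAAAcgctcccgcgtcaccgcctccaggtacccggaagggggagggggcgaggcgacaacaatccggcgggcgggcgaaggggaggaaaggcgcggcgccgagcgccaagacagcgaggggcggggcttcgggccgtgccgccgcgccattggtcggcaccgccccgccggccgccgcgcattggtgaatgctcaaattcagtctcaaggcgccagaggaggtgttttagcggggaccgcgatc
Rbl1, chr2:157204485-157204784, minus strand: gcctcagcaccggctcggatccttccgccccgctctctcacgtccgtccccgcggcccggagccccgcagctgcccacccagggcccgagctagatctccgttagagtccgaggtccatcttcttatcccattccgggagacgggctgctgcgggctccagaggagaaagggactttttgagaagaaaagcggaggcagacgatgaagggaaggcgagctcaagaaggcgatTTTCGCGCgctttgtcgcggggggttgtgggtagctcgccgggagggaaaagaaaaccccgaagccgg
The first base of the match stood 11 bases before the gene start in E2f3, 18 before it in Rbl1, 198 before it in E2f7 and 40 after it in E2f2. In E2f3 and E2f7 the match was TTTCCCGC read on the opposite strand, in Rbl1 it was TTTCGCGC and in E2f2 TTTGGCGC. An E box, CACGTG, was found in 1 member, E2f3, 24 bases before a second, downstream start, against 10.6% of fitted genes.

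The libraries held 23649233 to 33202086 counts, and 3 counts corresponded to 0.0904 to 0.127 CPM (counts scaled to a library of fixed size, here scaled with the TMM factors of edgeR), far below every member. Reads on Mir126a numbered 4, 5, 0, 2 and 3 in the CM libraries 1 to 5, and none of the 5 CM/miR-126Δ/Δ libraries had any, whereas its host gene Egfl7 lay at 87.8 to 135 CPM in CM and 97.2 to 127 CPM in CM/miR-126Δ/Δ. These libraries do not measure mature microRNA. The 7 LSK markers summed to 2287 to 2644 CPM in CM and 2051 to 2601 CPM in CM/miR-126Δ/Δ. The 5 neutrophil granule markers summed to 2.00 to 153 CPM in CM and 1.48 to 348 CPM in CM/miR-126Δ/Δ, highest in CM/miR-126Δ/Δ mouse 4. The ribosomal precursor Rn45s took 14.8% to 18.6% of the counts in CM and 16.6% to 22.6% in CM/miR-126Δ/Δ, highest in CM/miR-126Δ/Δ mouse 3. Sex, read from Xist and Y-linked genes, was female in mice 1 to 3 and male in mice 4 and 5 of both genotypes.

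None of the 10 members passed the test between genotypes, and every member was expressed in all 10 mice (771 counts or more for E2f1, 605 or more for E2f2). With edgeR's quasi-likelihood test and Benjamini-Hochberg adjustment over 18747 genes, 0 of 10 members had an adjusted p under 0.05, where 0.0107% of all genes (2 genes) did. By the cutoffs of the study's methods (p no higher than 0.01, at least 1.5-fold difference, mean RPKM of 1 or more in a genotype) 0 of 10 were called against 0.288% of all genes. At an unadjusted p under 0.05 stood 2 of 10 members, E2f4 and E2f6, both lower in CM/miR-126Δ/Δ, where 6.61% of all genes reached it and 3.32% did so on the lower side and 3.29% on the higher; of genes with a mean of at least 10 CPM 4.92% did so on the lower side. With DESeq2 the corresponding counts were 0 and 1, the latter E2f6, against 0.33% and 6.06% of genes. In no member were the genotypes separated without overlap, where 1.34% of the 9287 genes with a mean of at least 10 CPM were. The log2 fold change (CM/miR-126Δ/Δ against CM) was negative in 6 members and positive in 4, with a median of -0.02, and was negative in 52.6% of all genes fitted. In bulk RNA, fewer cells that express a gene and less of its RNA per cell cannot be told apart.

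**Figure D1:**
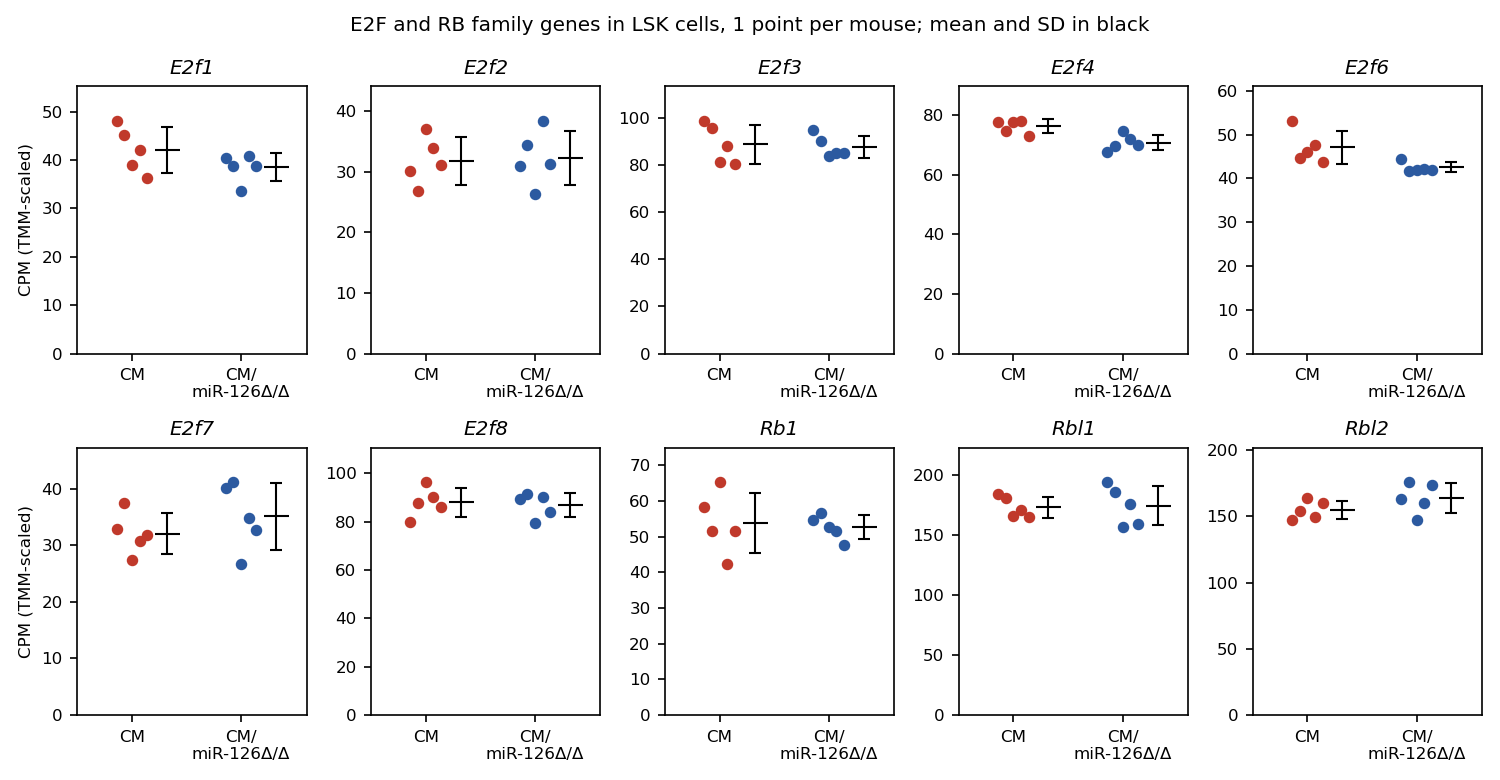
CPM (y axis, from 0, a scale per gene) of each member in the 5 CM (red) and 5 CM/miR-126Δ/Δ (blue) mice, ordered by replicate number from left to right within a genotype, with the mean and SD in black. In E2f4 and E2f6 4 of the 5 CM/miR-126Δ/Δ mice lie below all CM mice, and in the other 8 genes the genotypes are intermixed.

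Among the activators, E2f1, the best-known E2F for S-phase entry and for p53-linked cell death, was at 48.1, 45.1, 39.1, 42.0 and 36.2 CPM in CM mice 1 to 5 and at 40.3, 38.8, 33.6, 40.9 and 38.8 CPM in CM/miR-126Δ/Δ mice 1 to 5. The means were 42.1 ± 4.71 and 38.5 ± 2.89 CPM (SD, n = 5 each). The groups overlapped, with 3 CM mice above all CM/miR-126Δ/Δ mice and CM/miR-126Δ/Δ mouse 3 below all CM mice. The log2 fold change was -0.13 (95% interval -0.31 to 0.05; edgeR adjusted p = 0.766), that is -8.66% with an interval of -19.3% to 3.44%. It was -0.07 without CM mouse 1 and -0.09 without CM/miR-126Δ/Δ mouse 3.

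E2f2, an activator with an additional role in red cell maturation, was at 30.1, 26.7, 37.1, 34.0 and 31.1 CPM in CM and at 30.9, 34.4, 26.3, 38.4 and 31.3 CPM in CM/miR-126Δ/Δ. The highest and the lowest of the 10 values both came from CM/miR-126Δ/Δ mice, mouse 4 and mouse 3. Its log2 fold change was 0.02 (-0.21 to 0.25; edgeR adjusted p = 0.977). E2f3, the activator that is most abundant here, was at 98.7, 95.6, 81.5, 88.0 and 80.4 CPM in CM and at 95.01, 90.1, 83.7, 84.9 and 84.9 CPM in CM/miR-126Δ/Δ. All CM/miR-126Δ/Δ values lay inside the CM range. Between genotypes the log2 fold change was -0.02 (-0.16 to 0.12; edgeR adjusted p = 0.973), so a change of the E2f3 mean beyond -10.5% or 8.99% lies outside the interval.

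The canonical repressor E2f4 was the steadiest member. It stood at 77.7, 74.8, 77.9, 78.2 and 73.0 CPM in CM and at 67.8, 69.8, 74.6, 72.1 and 70.1 CPM in CM/miR-126Δ/Δ. Only CM/miR-126Δ/Δ mouse 3 exceeded the lowest CM mouse, and 4 of 5 CM mice lay above all CM/miR-126Δ/Δ mice. The means were 76.3 ± 2.32 and 70.9 ± 2.61 CPM (SD, n = 5 each). This was a log2 fold change of -0.11 (SE 0.05; interval -0.21 to -0.005), a difference of -7.14% with an interval of -13.5% to -0.328%. The unadjusted p was 0.0415 in the model fitted across all genes and the edgeR adjusted p 0.748. A two-sided exact permutation test of E2f4 alone gave p = 0.0159, not adjusted over the members.

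E2f6, which represses together with Polycomb-type proteins, was at 53.2, 44.7, 46.0, 47.7 and 43.9 CPM in CM. In CM/miR-126Δ/Δ it was at 44.5, 41.8, 42.0, 42.2 and 42.0 CPM. As with E2f4, 4 of 5 CM/miR-126Δ/Δ mice were below every CM mouse; the exception was CM/miR-126Δ/Δ mouse 1. The means were 47.1 ± 3.69 and 42.5 ± 1.14 CPM (SD, n = 5 each). This gave a log2 fold change of -0.15 (SE 0.06; interval -0.28 to -0.01), a difference of -9.72% with an interval of -17.7% to -0.953%. The unadjusted p was 0.0329 in the model fitted across all genes, with an edgeR adjusted p of 0.746. The two-sided exact permutation test of E2f6 alone gave p = 0.0159, not adjusted over the members. Apart from E2f4 and E2f6, the exact permutation p of the members was 0.198 (E2f1) to 0.944 (Rbl1). Without CM mouse 1 the E2f6 log2 fold change was -0.09 in edgeR (unadjusted p = 0.15, adjusted p = 0.841), the smallest on leaving out 1 library, and the unadjusted p stayed under 0.05 only without CM mouse 2, CM mouse 5 or CM/miR-126Δ/Δ mouse 1. For E2f4, leaving out any 1 library except CM/miR-126Δ/Δ mouse 3 took the unadjusted edgeR p above 0.05, to between 0.0518 and 0.143, at log2 fold changes of -0.11 to -0.08.

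The atypical repressors E2f7 and E2f8 are E2F targets that curb E2f1. E2f7, whose 3′ UTR carries the 7-base seed match shown above, was at 32.9, 37.4, 27.4, 30.7 and 31.7 CPM in CM and at 40.2, 41.1, 26.6, 34.8 and 32.7 CPM in CM/miR-126Δ/Δ. CM/miR-126Δ/Δ mice 1 and 2 lay above all CM mice and CM/miR-126Δ/Δ mouse 3 below all of them. The log2 fold change was 0.13 (-0.12 to 0.38; edgeR adjusted p = 0.766), the highest of the 10 and with the widest interval, -7.66% to 29.9%. Leaving out 1 library moved it between 0.07 and 0.22. It was 0.07 without CM/miR-126Δ/Δ mouse 2 (edgeR adjusted p = 0.962), 0.09 without CM/miR-126Δ/Δ mouse 1 (edgeR adjusted p = 0.887) and 0.22 without CM/miR-126Δ/Δ mouse 3 (edgeR unadjusted p = 0.0495, adjusted p = 0.763), the library with the highest Rn45s share; the part of that share in the value was not tested. E2f8 was at 80.0, 87.5, 96.2, 90.2 and 85.9 CPM in CM and at 89.5, 91.3, 79.5, 90.2 and 83.8 CPM in CM/miR-126Δ/Δ, with intermixed groups. Its log2 fold change was -0.02 (-0.15 to 0.11; edgeR adjusted p = 0.967).

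Among the pocket proteins, the tumour suppressor Rb1 was at 58.3, 51.6, 65.2, 42.4 and 51.6 CPM in CM and at 54.7, 56.6, 52.7, 51.5 and 47.6 CPM in CM/miR-126Δ/Δ, all of the latter inside the CM range. Its log2 fold change was -0.03 (-0.23 to 0.17; edgeR adjusted p = 0.96). Rbl1, the pocket protein linked to cycling cells, was at 184, 180.4, 165, 171 and 165 CPM in CM and at 194, 185, 157, 176 and 159 CPM in CM/miR-126Δ/Δ. Here the CM/miR-126Δ/Δ mice spread wider, with 2 above and 2 below all CM mice, and the log2 fold change was 0.01 (-0.14 to 0.16; edgeR adjusted p = 0.977). Rbl2, the pocket protein linked to quiescence, was at 148, 154, 164, 149.8 and 160.3 CPM in CM and at 163, 176, 148, 159.8 and 174 CPM in CM/miR-126Δ/Δ. CM/miR-126Δ/Δ mice 2 and 5 lay above all CM mice. For Rbl2 the log2 fold change was 0.08 (-0.05 to 0.21; edgeR adjusted p = 0.766).

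**Figure D2:**
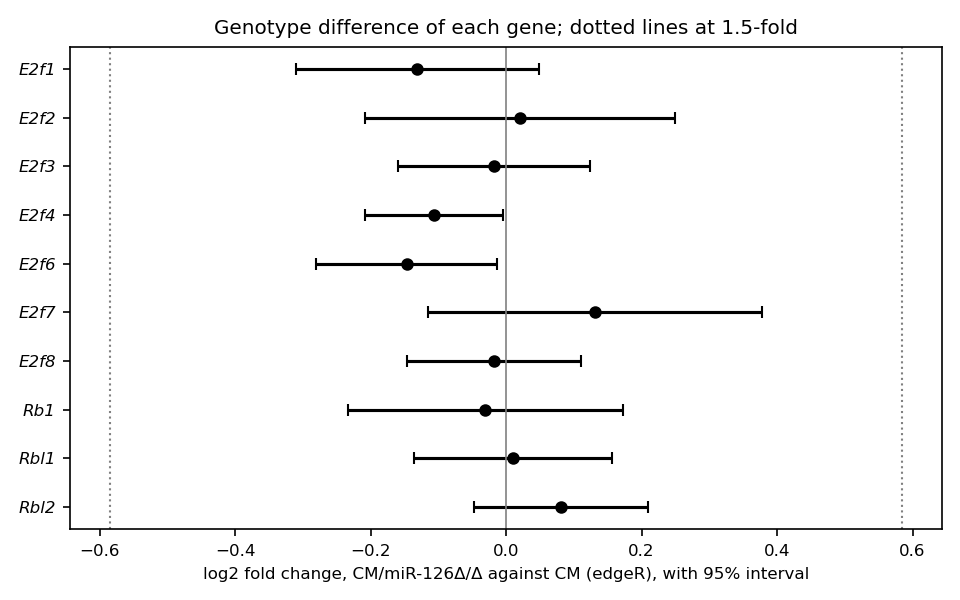
Log2 fold change of each member (CM/miR-126Δ/Δ against CM, x axis) with its 95% interval from edgeR; dotted lines mark the 1.5-fold cutoff. The intervals of E2f4 and E2f6 lie below 0, those of the other 8 span 0, and none reaches a 1.5-fold difference.

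Every one of the 10 intervals stayed inside a 1.5-fold change in either direction. The outermost bounds were 0.807-fold for E2f1 and 1.30-fold for E2f7. Spread between mice of a genotype differed among the members: the within-genotype SD of log2 CPM was 0.05 for E2f4 and 0.21 for E2f7. Among 6717 genes between 20 and 200 CPM these stood at percentiles 1.16 and 90.5, with E2f6 at 17.8, Rb1 at 84.1 and E2f2 at 87.0.

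Levels of different genes were compared per length, as CPM divided by the exon length in kilobases (RPKM), over all 10 mice. E2f4 was highest at 36.9 ± 1.85 RPKM (SD, n = 10), followed by Rbl2 at 32.4 ± 2.04 and Rbl1 at 32.1 ± 2.26 RPKM. E2f8 had 22.5 ± 1.35, E2f6 17.9 ± 1.41, E2f3 16.5 ± 1.18, E2f1 13.0 ± 1.34 and Rb1 11.4 ± 1.32 RPKM. E2f2, at 6.401 ± 0.794, and E2f7, at 6.08 ± 0.888 RPKM, were lowest. Some neighbours in this order did not differ beyond their spread: Rbl2 exceeded Rbl1 in 5 of 10 mice and E2f2 exceeded E2f7 in 7 of 10. The order held in 8 of 10 mice for E2f4 over Rbl2 and for E2f1 over Rb1, in 9 for E2f8 over E2f6 and for E2f6 over E2f3, and in all 10 for Rbl1 over E2f8, E2f3 over E2f1 and Rb1 over E2f2.

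**Figure D3:**
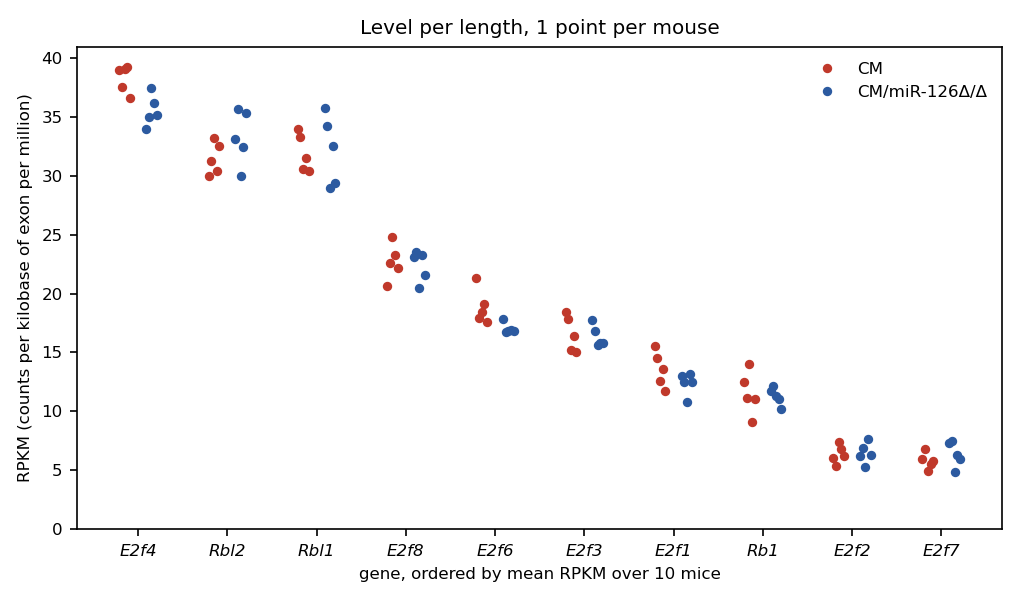
RPKM (y axis, from 0) of each member in the 5 CM (red) and 5 CM/miR-126Δ/Δ (blue) mice, genes ordered by mean. E2f4 lies at 34.0 to 39.2 RPKM and E2f7 at 4.82 to 7.45 RPKM.

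Summed by role, the activators amounted to 36.5 ± 2.64 RPKM (SD, n = 5) in CM and 35.2 ± 2.16 RPKM (SD, n = 5) in CM/miR-126Δ/Δ. The 4 repressors amounted to 85.6 ± 2.24 and 81.3 ± 1.65 RPKM, and the pocket proteins to 75.0 ± 2.59 and 76.8 ± 4.73 RPKM. E2f3 made up 43.2% to 49.2% of the activator RPKM in single mice. E2f4 made up 41.4% to 47.0% of the RPKM of these 4 repressors. E2f5 is not among the members and is in none of these sums. Among the pocket proteins Rb1 was the smallest share, 12.8% to 18.0%, while Rbl1 and Rbl2 each took 39.2% or more.

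The genes around the family were then read from lists of known partners, regulators and targets, chosen with earlier results of these data known. None of the 61 genes of these 5 lists had an adjusted p or an unadjusted p under 0.05 in the unpaired edgeR fit. Of the 9287 genes at 10 CPM or more, 7.81% had an unadjusted p under 0.05 in that fit. Of these 9287 genes 59.4% had a negative log2 fold change, with a median of -0.02. With replicate number as a block in edgeR, 1 gene of the RB kinase list and 1 G1/S target had an unadjusted p under 0.05. Both were lower in CM/miR-126Δ/Δ, where 8.89% of all genes fitted had such a p in either direction.

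The dimer partners and MuvB core genes build the DREAM complex with E2f4 and Rbl1 or Rbl2. Their list of 9 genes also holds Mybl2 and Foxm1, which are not part of that complex. Of the 9, 4 had negative and 5 positive log2 fold changes, with a median of 0.01. Tfdp1, the DP1 partner of most E2Fs, averaged 102 ± 8.71 CPM in CM against 94.8 ± 5.87 CPM after deletion (log2 fold change -0.11, SE 0.07). Tfdp2 was at 0.06 (SE 0.06) and the MuvB subunit gene Lin9 at -0.09 (SE 0.08) on the same scale. Of the 12 kinases, cyclins and inhibitors that act on pocket proteins 9 were negative and 3 positive, with a median of -0.06. Cdkn1a, which encodes the inhibitor p21, ranged from 9.91 to 36.0 CPM in CM and from 7.31 to 19.9 CPM in CM/miR-126Δ/Δ, with the log2 fold change farthest from 0 of these lists, -0.65 (SE 0.33). Ccnd2, the cyclin D gene with the highest RPKM here, was at a log2 fold change of -0.14 (SE 0.08). Cdk4, a cyclin D kinase gene, was at -0.11 (SE 0.07). Of the 8 partners of the E2f6 repressor complex 7 were negative and 1 positive, with a median of -0.07. Wdr5, a chromatin adaptor, averaged 135 ± 6.49 CPM in CM against 125.5 ± 3.29 CPM after deletion (log2 fold change -0.10, SE 0.05). Max, which dimerises with Mga in that complex, was at -0.10 (SE 0.06) and the Polycomb subunit gene Pcgf6 at -0.16 (SE 0.10) on the same scale. The adjusted p of these named partners and regulators was 0.764 to 0.793 in edgeR.

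Downstream, 18 of 20 E2F target genes of G1/S and replication had negative log2 fold changes and 2 positive ones, with a median of -0.07. All 20 were read in the same mice, so their signs are not independent of each other. Their mean log2 CPM was highest in CM mouse 1, at 6.871. It was 6.581 to 6.799 in the other CM mice and 6.615 to 6.753 in CM/miR-126Δ/Δ. The part of CM mouse 1 in these signs was not tested. Pcna, the replication clamp, averaged 104 ± 8.74 CPM in CM against 93.8 ± 11.98 CPM after deletion (log2 fold change -0.15, SE 0.09). The helicase subunit gene Mcm7 was at -0.11 (SE 0.07) and the phosphatase gene Cdc25a at -0.11 (SE 0.07) on the same scale. Of the 12 G2 and mitosis genes bound through MuvB 3 had negative and 9 positive values, with a median of 0.05. Cenpf, a kinetochore gene, averaged 164 ± 11.3 CPM in CM against 185.5 ± 28.6 CPM after deletion (log2 fold change 0.18, SE 0.09). The mitotic kinase gene Plk1 was at 0.08 (SE 0.06) and the cyclin gene Ccnb2 at 0.10 (SE 0.08) on the same scale. These named targets had an edgeR adjusted p of 0.765 or 0.766. The E2F motif of the promoter search was found in 10 of the 18 G1/S targets with a window and in 1 of 11 G2 and mitosis genes, against 4.03% of all fitted genes with a window.

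Across the 10 mice, the members were compared with Mki67, the gene of the Ki-67 protein of cycling cells, which lay at 844 to 1066 CPM in CM and 838 to 1234 CPM in CM/miR-126Δ/Δ. With uncentred values of all 10 mice, no relation passed Benjamini-Hochberg adjustment over the 10 members. The strongest was that of Rbl2, with Pearson r = 0.724 (permutation p = 0.0181, adjusted p = 0.181, n = 10) and Spearman rho = 0.806 (permutation p = 0.00743, adjusted p = 0.0743). After centring on the genotype means Rbl2 had r = 0.685 (permutation p = 0.0285, adjusted p = 0.285). Its centred rho was 0.83 (permutation p = 0.00469, adjusted p = 0.0469), so there Rbl2 passed by rho and not by r. Uncentred, r was 0.793 without the 2 mice farthest from the Mki67 median (CM/miR-126Δ/Δ mice 2 and 4) and 0.911 in the 6 females. The 4 males were too few. Leaving out 1 mouse gave r from 0.585 without CM/miR-126Δ/Δ mouse 2 (exact permutation, adjusted p = 0.68) to 0.863 without CM/miR-126Δ/Δ mouse 4 (exact permutation, adjusted p = 0.0141), and 0.65 without CM mouse 1 (exact permutation, adjusted p = 0.552). CM/miR-126Δ/Δ mouse 4 had the lowest Mki67 and the highest neutrophil marker sum, 348 CPM, and the part of the latter was not tested. E2f1, E2f4 and E2f6 had negative r with Mki67, of -0.464, -0.549 and -0.50 (adjusted permutation p = 0.434 each, n = 10).

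When the mean log2 CPM of the 20 G1/S target genes took the place of Mki67, 2 members passed. E2f3 followed it with r = 0.886 (permutation p = 0.00047, adjusted p = 0.0047, n = 10) and rho = 0.842 (permutation p = 0.00347, adjusted p = 0.0173). E2f1 followed with r = 0.869 (permutation p = 0.00164, adjusted p = 0.0082, n = 10) and rho = 0.903 (permutation p = 0.0007, adjusted p = 0.007). Without the 2 mice farthest from the median, CM mice 1 and 5, r was 0.774 for E2f3 and 0.757 for E2f1; in the 6 females it was 0.899 and 0.945, and after centring on the genotype means 0.91 and 0.859. Leaving out any 1 mouse gave 0.829 to 0.912 for E2f3 and 0.78 to 0.944 for E2f1, lowest without CM mouse 1 in both. Of 9267 other genes at 10 CPM or more, 0.183% had an r at least as high as E2f3 and 0.291% as E2f1.

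E2f6 (r = 0.724, adjusted permutation p = 0.0575, n = 10) and Rbl1 (r = 0.698, adjusted permutation p = 0.0617, n = 10) came next and did not pass. With genotype-centred values or without TMM factors, alternatives chosen after seeing the data, both passed by Pearson r (0.746 for both when centred, 0.807 and 0.795 without TMM). For E2f6 the centred Spearman rho did not pass (0.673, adjusted permutation p = 0.101, n = 10), and the centred r was 0.255 without CM mice 1 and 5. Uncentred, the r of E2f6 was 0.443 without CM mouse 1, so the relation of E2f6 rests on few mice. The third activator, E2f2, was at r = -0.147 (adjusted permutation p = 0.819, n = 10) and Rbl2 at -0.49 (adjusted p = 0.307). The 20-gene mean and Mki67 had r = -0.439 with each other as log2 CPM, so the 2 measures of cycling ordered the mice differently. All points share library scaling with the genes on the other axis. The target mean itself was 6.74 ± 0.11 in CM and 6.69 ± 0.05 (log2 CPM, SD, n = 5 mice per genotype) in CM/miR-126Δ/Δ.

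**Figure D4:**
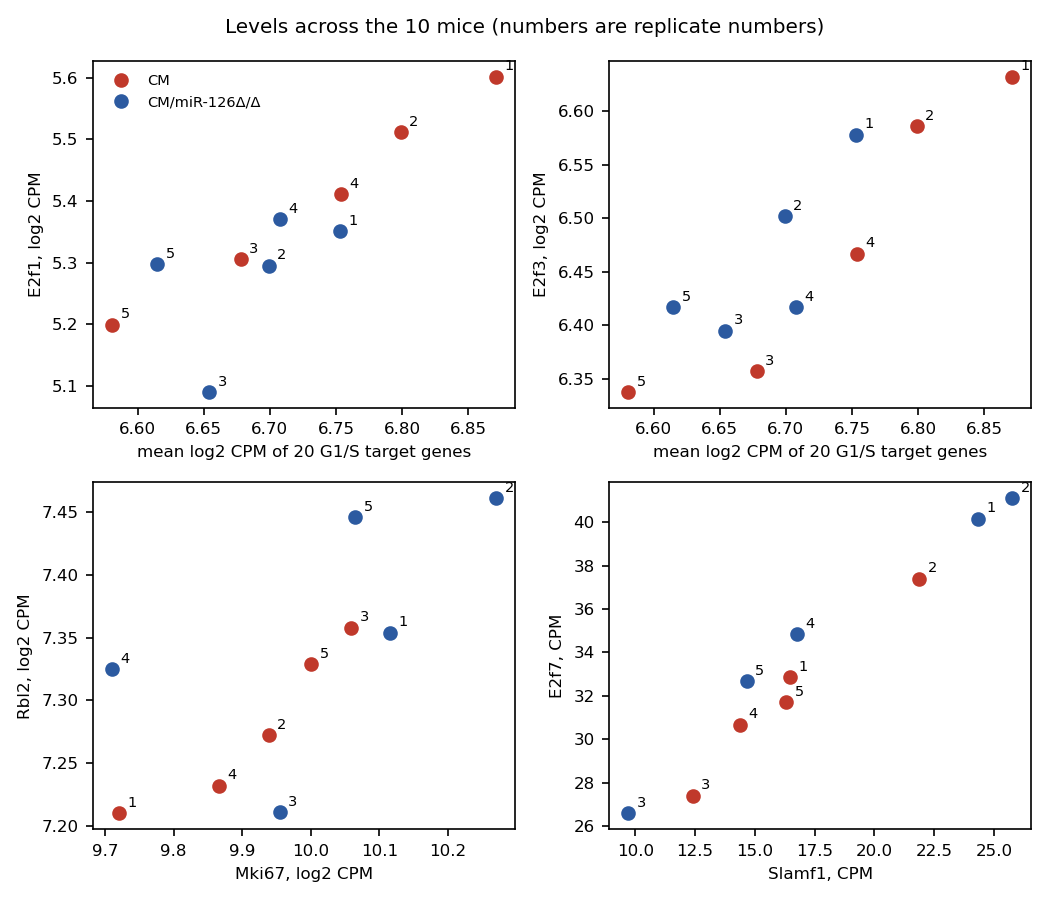
Each point is 1 mouse (CM red, CM/miR-126Δ/Δ blue, numbered by replicate): E2f1 and E2f3 against the mean of 20 G1/S target genes, Rbl2 against Mki67 (log2 CPM) and E2f7 against Slamf1 (CPM). E2f1 (r = 0.869) and E2f3 (r = 0.886) climb with the target genes, and E2f7 climbs with Slamf1.

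Between the members themselves, 30 of 45 pairs had a positive Pearson r across mice, and no pair passed adjustment over the 45. The highest were E2f7 with Rbl1 (r = 0.823, rho = 0.842; permutation p = 0.00421 and 0.00378, adjusted p = 0.114 and 0.17, n = 10), E2f3 with Rbl1 (r = 0.797, rho = 0.745; permutation p = 0.00763 and 0.0173, adjusted p = 0.114 and 0.183, n = 10) and E2f1 with E2f3 (r = 0.775, rho = 0.709; permutation p = 0.00692 and 0.0262, adjusted p = 0.114 and 0.196, n = 10). E2f3, E2f7 and Rbl1, which form the first 2 of these pairs, are 3 of the 4 members in which the motif was found. The outer start of E2f1 and the promoters of E2f4 and Rb1 were not searched. The fourth member with the motif, E2f2, had r of 0.0966 with Rbl1, 0.0484 with E2f7 and -0.349 with E2f3. A part of the motif in these relations was not tested. E2f2 ran closest to E2f8 (r = 0.727, rho = 0.782; permutation p = 0.0177 and 0.0109, adjusted p = 0.184 and 0.183, n = 10). The lowest r was that of E2f4 with Rbl2, its partner in resting cells (r = -0.69, rho = -0.588; permutation p = 0.0298 and 0.0801, adjusted p = 0.206 and 0.398, n = 10). These pair values were not centred on the genotype means. After centring, E2f4 with Rbl2 had r = -0.591, and E2f4 with E2f7 was lowest at -0.719.

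**Figure D5:**
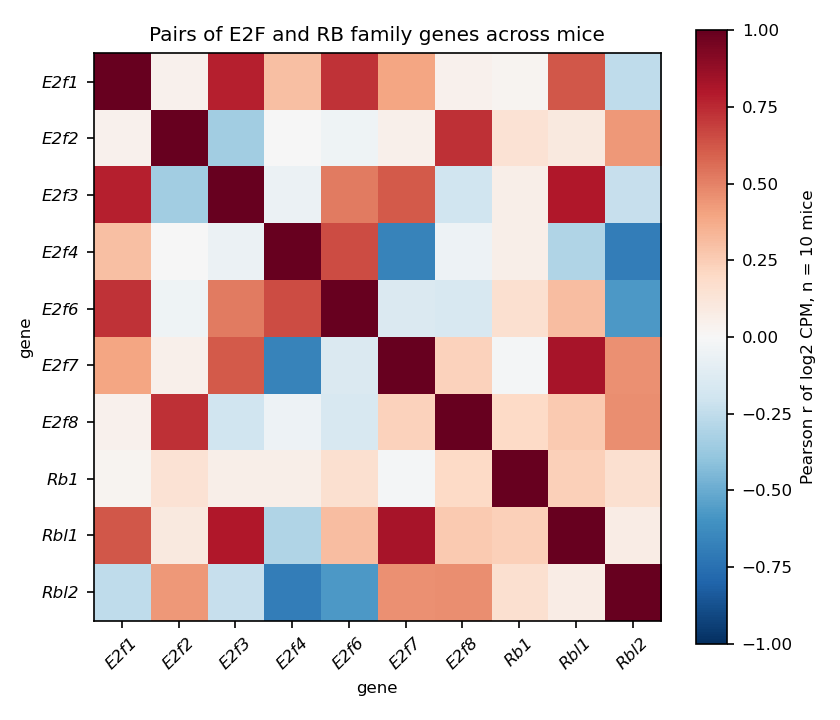
Pearson r of log2 CPM over 10 mice for each pair of members (colour, -1 blue to 1 red). E2f1, E2f3, E2f7 and Rbl1 share red fields, highest for E2f7 with Rbl1 (0.823), and E2f4 is blue with E2f7 (-0.668) and Rbl2 (-0.69).

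For each member, the gene whose levels ran most alike across mice was sought among 9277 other genes at 10 CPM or more, by Pearson r of genotype-centred log2 CPM over the 10 mice. The highest of all was Slamf1, which encodes the surface marker CD150, with E2f7 (r = 0.992). Slamf1 was at 16.5, 21.9, 12.4, 14.4 and 16.3 CPM in CM and at 24.3, 25.8, 9.71, 16.7 and 14.7 CPM in CM/miR-126Δ/Δ; mouse 3 was lowest and mouse 2 highest within each genotype, as for E2f7. Clstn3 (0.937) and Fbxo11 (0.934) followed. Slamf1 between genotypes was at a log2 fold change of 0.16 (edgeR adjusted p = 0.876).

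E2f3 ran most like Uhrf1, a maintenance factor of DNA methylation that is also on the G1/S list (r = 0.945), Slc3a2 (0.945) and Dtl, a ubiquitin ligase subunit gene of S phase (0.944). Among the genes most like E2f1 were Rras2 (0.958) and Cgas (0.94). E2f2 ran most like Zkscan3 (0.957), BC005624 (0.95) and Tom1l1 (0.93). For the repressors these were Ybx3 (0.953), Ndufb3 (0.942) and Lta4h (0.932) with E2f4, Psat1 (0.951), Wrb (0.95) and Samd1 (0.949) with E2f6, and Alg12 (0.941), Bora (0.928) and Kctd9 (0.915) with E2f8. For the pocket proteins they were Trappc8 (0.946), Thoc2 (0.935) and Glcci1 (0.922) with Rb1, Rbm18 (0.96), Twf1 (0.951) and Hoxa10 (0.937) with Rbl1, and Atxn7 (0.868), Dhx57 (0.868) and Usp53 (0.86) with Rbl2. With 10 mice and 9277 genes compared, the highest r of each member is a maximum over many and is given as a description.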

How the data were processed

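LSK RNA was ribosome-depleted and made into libraries, 1 per mouse; the RNA was at 16.1 to 40.9 ng per µl. The authors trimmed reads with Trimmomatic and FASTP, aligned them to mm10 with TopHat and deposited whole-number counts per RefSeq gene from HTSeq (0.6.1p1 in the submitters' processing notes); the strand setting is not given in the sources used here. The deposited exon length per gene was used for RPKM. A second deposited table holds the counts divided by a constant per library, not by length, and was not used. No duplicate libraries were seen.

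Counts were fitted with edgeR 4.0.16 (R 4.3.3) in its older quasi-likelihood form, TMM factors, genotype as the only term and all 10 libraries, two-sided, on the 18747 genes with a count; 6331 had none. Differences are log2 ratios of CPM. DESeq2 1.42.0 was an alternative. Self-tests on simulated counts were run. Correlations used log2(CPM + 0.5) with 100000 permutations (scipy 1.17.1), exact for 9 mice. Single genes were tested by exact permutation of 5 against 5 mice, where the smallest p possible is 0.00794. The p-values rest on the spread between these mice, and in edgeR also on counting noise and the spread of other genes. Named genes were all members, the 3 genes of smallest p per list, the 3 most alike genes per member (1 is not reported here), Mki67, Mir126a and Egfl7. The members and lists were chosen with earlier results of these data known. B cell markers summed to 0.435 to 11.0 CPM, T cell markers to 8.40 to 19.1, erythroid markers (3 of 5 fitted) to 10.0 to 69.2, monocyte and macrophage markers to 89.2 to 212, and endothelial markers, which stem cells share, to 239 to 310 CPM; no marker gene had an unadjusted p under 0.05. The log2 fold changes were nonetheless of 1 sign in some lists: all 5 neutrophil markers were positive (median 0.92), and all 5 monocyte and macrophage (median -0.33) and all 5 endothelial markers (median -0.13) were negative. The neutrophil markers summed to 348 CPM in CM/miR-126Δ/Δ mouse 4. In the other mice of that genotype they summed to 1.48 to 22.4 CPM, and in CM to 2.0 to 153 CPM. With the replicate block 2 monocyte and macrophage markers and 1 endothelial marker had an unadjusted p under 0.05, lower in CM/miR-126Δ/Δ. The part of these cells in the members' values was not tested.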

Additional observations from a re-analysis of the deposited data

Results flagged for a closer look

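Among the 20 groups of 5 values (10 members in 2 genotypes), 2 held a mouse far from the other 4, its gap to the nearest exceeding 0.71 of the group range; chance gives about 1 in 20 groups, here 1. E2f1 in CM/miR-126Δ/Δ mouse 3 was at 33.6 CPM, against 38.8 to 40.9 CPM in the other 4 (gap 0.712 of the range). That library also had the highest Rn45s share, 22.6%, and the lowest TMM factor, 0.922. E2f6 in CM/miR-126Δ/Δ mouse 1 was at 44.5 CPM, against 41.8 to 42.2 CPM in the other 4 (gap 0.86 of the range); it is the mouse that overlapped the CM group.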

How the results depend on the processing

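The direction of E2f1, E2f4 and E2f6 (lower) and of E2f7 and Rbl2 (higher in CM/miR-126Δ/Δ) held in all 22 settings run, and the lowest adjusted p of any member was 0.46. E2f6 had an unadjusted p under 0.05 in 14 settings and E2f4 in 4. The count of members under 0.05, 2 as reported, was 1 with RLE size factors, DESeq2, the edgeR 4 form, robust dispersions, either expression filter, sex as covariate, and, an alternative chosen after seeing the data, replicate 3 of both genotypes left out (there Rbl2, 0.14); it was 0 to 2 on leaving out 1 library. The fit used here called 54 genes by the study's cutoffs, which is not the number that the study itself reported. That count became 109 with replicate 3 of both genotypes left out and 33 to 128 on leaving out 1 library (128 without CM 3, 94 without CM/miR-126Δ/Δ 4, 85 without CM/miR-126Δ/Δ 1, 33 without CM/miR-126Δ/Δ 5). The cause was not tested. Log2 fold changes near 0 turned sign: E2f3 to 0.002 and 0.000 and E2f8 to 0.003 and 0.001 with the RPKM filter and filterByExpr, and E2f8 to 0.047 and Rb1 to 0.046 with replicate 3 of both genotypes left out. On leaving out 1 library the ranges were -0.166 to -0.066 for E2f1, 0.068 to 0.216 for E2f7, -0.035 to 0.095 for E2f2, -0.038 to 0.035 for E2f3, -0.038 to 0.03 for E2f8, -0.093 to 0.059 for Rb1 and -0.019 to 0.046 for Rbl1.

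With the replicate block the counts were 1 member and 115 genes, and 20 genes had an adjusted p under 0.05; E2f6, at -0.14, kept an unadjusted p under 0.05 (8.89% of genes had one; edgeR adjusted p = 0.46) and E2f4, at -0.11, did not (edgeR adjusted p = 0.572). Deviations of same-numbered mice correlated at 0.176, 0.164, 0.43, 0.292 and -0.00355 over 13442 genes. Their mean was 0.211, against -0.0535 for mice of different number. Of the 10 libraries, 5 correlated best with the library of their own number, and mice of 1 number were of the same sex. Whether the numbers pair the mice is not known. The main fit was left unpaired, and the replicate block gives the values with the numbers taken as pairs.

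For the relations with Mki67, counted by the adjusted p of Pearson r, 0 members passed as reported and 2 with the G1/S target mean. The count was 4 with that mean genotype-centred and 4 with it without TMM factors. It was 0 to 1 on leaving out 1 library (1 without CM/miR-126Δ/Δ 4). By genotype-centred Spearman rho with Mki67, Rbl2 passed. Signs turned with the target mean for E2f1 (0.869), E2f3 (0.886), E2f4 (0.334), E2f6 (0.724), E2f8 (-0.0809) and Rbl2 (-0.49); centred, for E2f1 (0.859), E2f3 (0.91), E2f4 (0.156), E2f6 (0.746), E2f8 (-0.12) and Rbl2 (-0.411); without TMM, for E2f1 (0.938), E2f2 (0.359), E2f3 (0.894), E2f4 (0.509) and E2f6 (0.807); and for E2f2 with Mki67 without TMM (0.223). On leaving out 1 library r with Mki67 ran from -0.192 to 0.365 for E2f2, -0.287 to 0.196 for E2f3, -0.00885 to 0.444 for E2f7 and -0.212 to 0.24 for Rbl1. Each member had 605 counts or more in every library. The part of counting noise in the intervals was not separated from the spread between mice.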
